A study of Mus musculus with 29 samples.

Results

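Poly(A) RNA was sequenced from the medial prefrontal cortex (PFC) of mice in which miR-99b-5p had been inhibited (anti-miR-99b, n = 3) and of mice that received a negative control oligonucleotide (sc-control, n = 3). These 6 libraries, 1 for each mouse, were all the PFC libraries among the 29 libraries of the series, and they were chosen by their tissue and treatment labels and fitted alone. All mice were C57BL/6J and 3 months old. The oligonucleotide was an inhibitor built from locked nucleic acid and was packed, like the control, in lipid nanoparticles that were injected into the PFC, and the tissue was taken 5 days later, so both groups carried an injection, nanoparticles and a foreign oligonucleotide. An inhibitor of this kind binds the mature miRNA in any cell that takes it up and is not limited to a cell type. Of 48709 genes in the count table, 31281 had at least 1 count and 17364 passed the filter on low counts and were tested.

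MicroRNAs are short RNAs that guide an Argonaute protein to messages holding a match to the seed, the bases near the 5′ end of the miRNA, and they usually lower the amount or the translation of those messages. Blocking a miRNA is therefore known to raise its direct targets, while genes further along the pathway can move either way. The mPFC is a layered cortex of excitatory projection neurons and inhibitory interneurons together with astrocytes, oligodendrocytes, microglia and vessels. Its RNA in bulk is an average over all of them, so fewer cells of a type and less RNA per cell cannot be told apart in any result given here.

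miR-99b-5p belongs to a family that shares one seed, which decides which sites an inhibitor can free, and the mature sequences are given with bases 2 to 8 in capitals (RefSeq, GRCm38.p6). The miR-99b hairpin lies on chromosome 17 within the annotated gene Spaca6, and its mature arm is at chr17:17830194-17830215 on the + strand. The mature arms of the relatives are at chr16:77598940-77598961 and chr9:41531437-41531458.
miR-99b-5p: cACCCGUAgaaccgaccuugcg
miR-99a-5p: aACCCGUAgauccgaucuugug
miR-100-5p: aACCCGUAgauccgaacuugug

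The miRNA itself was not measured by these libraries, since poly(A) selection discards mature miRNAs. The row of the Mir99b hairpin held 2, 1 and 1 counts in the anti-miR-99b mice and 1 count in each sc-control mouse, which is too little for a check of the treatment. The transcript of its host gene Spaca6 stood at 39.1, 41.1 and 42.4 CPM (counts scaled to a common library size with TMM factors) after anti-miR-99b and at 36.1, 38.6 and 36.3 CPM in controls. All treated mice were above all controls, by a log2 fold change (log2FC, treated minus control) of 0.14 ± 0.07 (SE), with an unadjusted p of 0.0634 in edgeR's quasi-likelihood test.

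Both sequencing lanes carried both groups. Lane 6 held anti-miR-99b mice 1 and 2 and sc-control mice 2 and 3, and lane 7 held anti-miR-99b mouse 3 and sc-control mouse 4. The libraries held between 24482309 and 36475236 counts, and depth leaned by group, with the treated libraries at most 29927462 and the controls at least 28450652 counts. Neuronal, astrocytic, oligodendrocyte and microglial markers were all present. Markers of the neighbouring striatum, among them Drd1, Drd2 and Adora2a, were also present and differed widely between mice. All 4 were below 0 in the fit, with a median log2FC of -0.65 and 0 at an unadjusted p under 0.05. With a mouse left out, the median of these markers ran from -1.06 to -0.19. Their median deviation from the mean over mice, on the log2 scale, was 1.01 and 0.46 in sc-control mice 2 and 3 but -0.66 in sc-control mouse 4. It was -0.48 and -0.51 in anti-miR-99b mice 1 and 2 and 0.33 in anti-miR-99b mouse 3, so the sign of the group difference was opposite in the 2 lanes. A list of 15 injury and wound genes (Gfap, Vim, Timp1 and others) also set sc-control mouse 4 apart, at 0.30 against -0.43 and -0.34 in mice 2 and 3. The treated mice stood at 0.33, 0.29 and -0.14. Where values within lane 6 and within lane 7 are given, they are differences of log2(CPM + 0.5). The added 0.5 pulls these differences toward 0 in genes of low level, where they are not on the scale of the fitted log2FC.

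**Figure D1:**
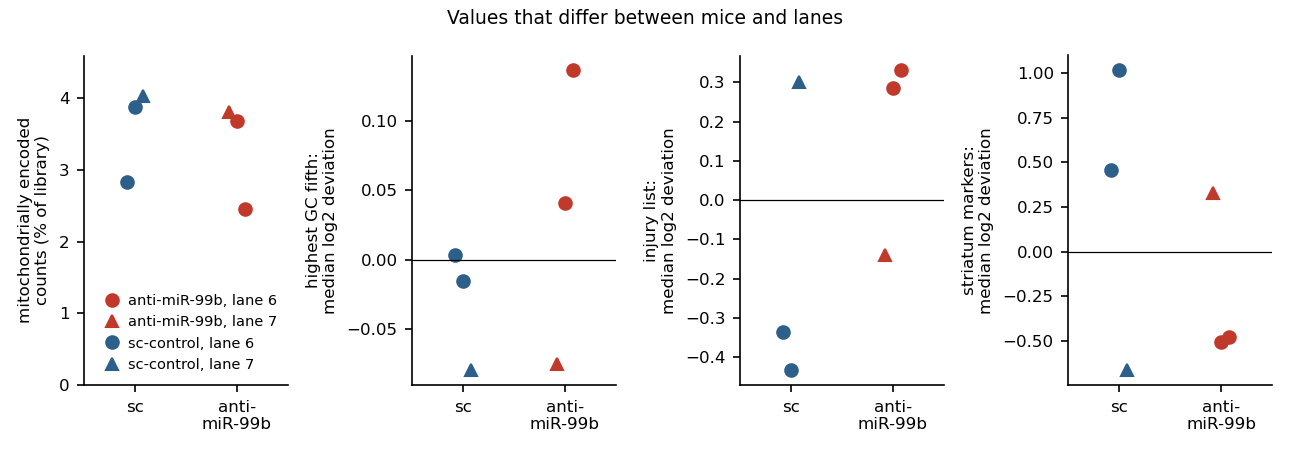
The 4 panels plot, for each mouse, the share of counts from mitochondrially encoded genes (percent of the library), and the median log2 deviation from the mean over mice for the protein-coding genes richest in GC (the highest of 5 equal bins), for the injury list and for 4 striatum markers. Circles are lane 6, triangles lane 7, red anti-miR-99b and blue sc-control. In the last 3 panels the lane 7 control lies apart from the lane 6 controls, and in the striatum panel it is the lowest of all mice at -0.66.

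At an adjusted p under 0.1 and an absolute log2FC over 0.2, 15 genes rose after anti-miR-99b (0.0864% of genes tested) and 0 fell (0%). DESeq2 called 85 higher and 8 lower genes on the same counts, and all 15 genes were among those it called. At an unadjusted p under 0.05, 897 genes were higher (5.17%) and 429 lower (2.47%). Groups did not overlap, with all treated mice above all controls, in 1305 genes (7.52%), and the opposite held in 1008 genes (5.81%). The 15 calls depended on single mice. The count of higher genes ran from 1 without anti-miR-99b mouse 2 or without sc-control mouse 2 to 195 without sc-control mouse 4, while the 15 genes had a positive log2FC in each of these fits, never below 0.47. Without anti-miR-99b mouse 1, anti-miR-99b mouse 3 or sc-control mouse 3 it was 10, 31 and 5.

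The largest change among the 15 was in Avil, which codes for advillin, an actin-binding protein of the gelsolin and villin family. Avil stood at 16.3, 15.7 and 9.14 CPM in the treated mice and at 0.642, 0.599 and 1.25 CPM in the controls. Every treated mouse was at least several times above every control, and the lane 7 mice lay closest to each other. Its log2FC was 4.01 ± 0.30 (SE, adjusted p = 0.00172), and it was past the threshold in all 6 fits that left out a mouse, the only gene of the 15 for which this held. Its family severs, caps or bundles actin filaments, and all 6 tested members were above 0, with a median of 0.40 (0.48 in lane 6, -0.04 in lane 7). Avil itself is 1 of the 6 and is counted in this median. Gsn (gelsolin) was at 0.27 ± 0.08, Vil1 at 0.71 ± 0.31, Capg at 0.53 ± 0.29, Flii at 0.05 ± 0.08 and Svil at 0.02 ± 0.10, and Gsn and Vil1 were at unadjusted p-values of 0.00927 and 0.0433. Hsf5, a member of the heat shock factor family of transcription factors, stood at 3.68, 4.00 and 2.43 CPM against 0.419, 0.599 and 0.612 CPM (log2FC 2.63 ± 0.26, adjusted p = 0.0116). Apoa1, the main protein of high-density lipoprotein, stood at 3.72, 3.18 and 1.97 CPM against 0.195, 0.388 and 0.495 CPM (log2FC 3.03 ± 0.34, adjusted p = 0.027). The other heat shock factors tested stayed close to 0 or below it, with Hsf1 at 0.04 ± 0.07, Hsf4 at 0.06 ± 0.08 and Hsf2 at -0.25 ± 0.11. In Hsf5 and Apoa1 too the groups were apart, and anti-miR-99b mouse 3 was the lowest of the treated mice.

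The other induced genes of low level had a similar shape. Wfikkn1, a secreted inhibitor of growth factors of the TGF-β family, rose by 2.71 ± 0.33 on the log2 scale from 0.475, 0.317 and 0.466 CPM to 3.63, 3.14 and 1.71 CPM. Aldh8a1, an aldehyde dehydrogenase, rose by 2.65 ± 0.36 from levels of 0.14, 0.106 and 0.117 CPM. Ccdc169, whose role is less well known, rose by 2.40 ± 0.31 from 0.168, 0.211 and 0.262 CPM. Of the 15 genes, 7 had a mean under 1 CPM in the controls, so most of the large fold changes started from low counts. Aspm, a spindle protein of dividing cells, rose by 1.33 ± 0.20, and Cyp2j12, a cytochrome P450, by 1.24 ± 0.15. Rinl, a Ras and Rab interactor, rose by 1.25 ± 0.17, and Mx2, a dynamin-like antiviral GTPase that the annotation lists as a polymorphic pseudogene in mice, by 1.45 ± 0.18.

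Smaller changes were called in 3 genes with well-measured levels. Usp54, of the ubiquitin-specific protease family, stood at 99.9, 109 and 101 CPM in treated mice and at 71.2, 72.1 and 74.5 CPM in controls. Chd2, a chromatin remodeller of the CHD family, stood at 124, 124 and 108 CPM against 83.6, 77.4 and 86.1 CPM. The spread within each group was small beside the gap in both genes, with a log2FC of 0.51 ± 0.07 for Usp54 (adjusted p = 0.0331) and 0.53 ± 0.08 for Chd2 (adjusted p = 0.0635). Srpk3, a kinase of splicing factors of the SR family, stood at 14.0, 13.3 and 13.7 CPM against 8.52, 8.84 and 9.73 CPM (log2FC 0.60 ± 0.09, adjusted p = 0.0942). It was the call nearest to the threshold and was kept in 1 of the 6 fits that left out a mouse.

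Several of the 15 genes overlap another annotated gene on the chromosome, and the library kit does not mark strand, so reads from overlapping exons cannot be told apart. Avil overlaps Tsfm, a mitochondrial translation factor, which did not move with it (log2FC -0.03 ± 0.08). Nkx6-2 overlaps Inpp5a, an inositol phosphatase, at 0.03 ± 0.07. Usp54 overlaps 1810062O18Rik and 2810402E24Rik, at 0.17 ± 0.25 and -0.07 ± 0.17, and Wfikkn1 overlaps Gm26694 at -0.07 ± 0.18. Chd2 overlaps 1810026B05Rik, which was at 0.32 ± 0.14 with an unadjusted p of 0.0523, and 4 further loci, and Ccdc169 overlaps Gm22029. The nearest gene on each side was also read, 30 neighbours in all, of which 16 were tested. Of these, 2 were higher and 1 was lower at an unadjusted p under 0.05, and their median log2FC was -0.02. The higher neighbours were Rnf43, a ubiquitin ligase of Wnt signalling beside Hsf5 (0.34 ± 0.13), and Plxnb3, a semaphorin receptor beside Srpk3 (0.33 ± 0.07). The lower one was Mtmr4, a lipid phosphatase on the other side of Hsf5 (-0.20 ± 0.07).

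**Figure D2:**
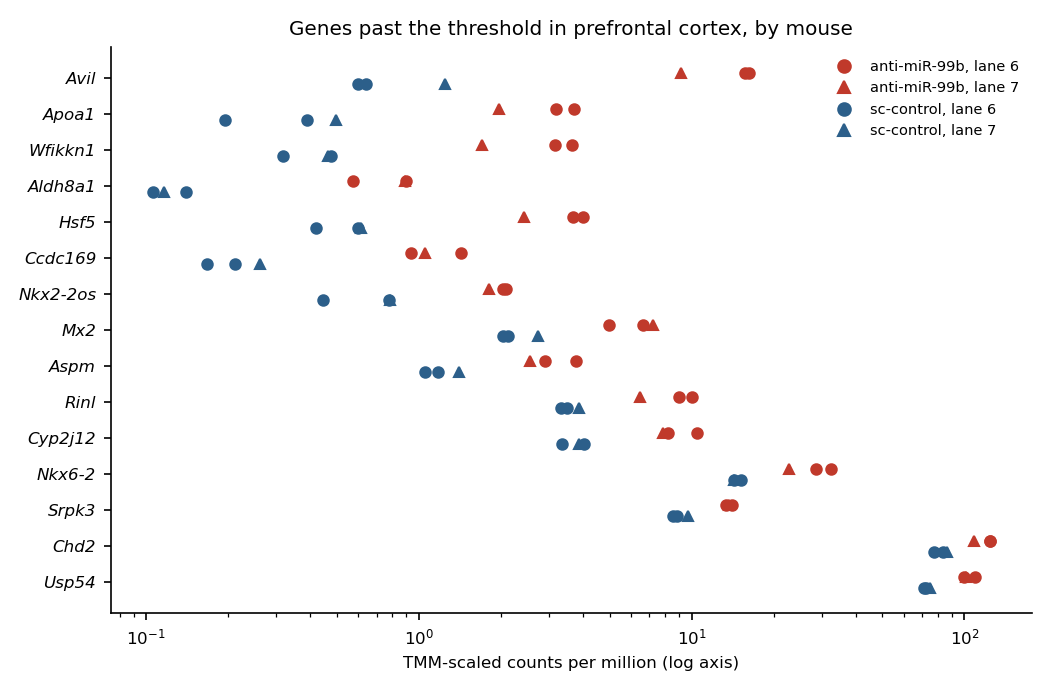
CPM on a log axis (x) for each mouse, for the 15 genes past the threshold, ordered by log2FC from Avil (4.01) at the top to Usp54 (0.51). Red is anti-miR-99b, blue sc-control, circles lane 6 and triangles lane 7. In every gene the 3 red points lie to the right of the 3 blue ones, and the red triangle is usually the lowest of the red points.

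The direct reach of the inhibitor was examined by the seed. The reverse complement of bases 2 to 8 is TACGGGT, and followed by A it makes the 8mer TACGGGTA. Both were searched on the sense strand of every annotated 3′ UTR of protein-coding genes (GENCODE M21), which is the strand that a miRNA reads, along with ACGGGTA, the 7mer that ends in A and that every 8mer contains. Of 20927 genes with an annotated 3′ UTR, 58 held an 8mer, 232 the 7mer TACGGGT without an 8mer and 210 the 7mer ending in A alone, and 48, 207 and 186 of these were among the 14875 tested. The median log2FC was -0.02 for genes with an 8mer, -0.01 for those with the 7mer and -0.03 for the last kind, against 0.00 for genes with none. At an unadjusted p under 0.05, 3 genes with an 8mer were higher and 0 lower, 5 with the 7mer TACGGGT were higher and 11 lower, and 13 with the 7mer ending in A were higher and 3 lower. As shares these were 6.25%, 2.42% and 6.99% higher and 0%, 5.31% and 1.61% lower, against 5.17% and 2.47% of all genes tested. The median of genes with an 8mer was -0.05 in lane 6 and -0.01 in lane 7. All 13 protein-coding genes past the threshold lacked these matches. A match is a description of letters in an annotated UTR and not a tested site.

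A list of 14 genes reported as targets of the miR-99 family was read in the same way, and the matches of 5 of them are shown because they hold the site an inhibitor would free. The letters pairing with the seed, and the A that follows, are in capitals (GRCm38, GENCODE M21 transcripts). The sites in Igf1r, at chr7:68232107-68232114, in Ctdspl, at chr9:119043123-119043130, and in Mtor, at chr4:148557149-148557155, are on the + strand. Those in Epdr1, at chr13:19592146-19592153, and in Trib2, at chr12:15792411-15792417, are on the - strand. The match of Ptgir, at chr7:16910857-16910864 on the + strand, is added because it was the 8mer gene with the lowest p.
Igf1r: taagtccagtagatTACGGGTA
Ctdspl: tttcttaaggtaaaTACGGGTA
Epdr1: aagaacgccctgagTACGGGTA
Mtor: gggtaactgagaaaTACGGGTt
Trib2: gccagtacttcaatTACGGGTc
Ptgir: tggtaatttttattTACGGGTA

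Of the 14 listed genes, 13 were tested, 4 were above 0 and 9 below, 0 were past the threshold, and the median log2FC was -0.06 (-0.07 in lane 6, -0.05 in lane 7). Mtor, the kinase at the centre of growth control and one of the best-known members, stood at 150, 135 and 132 CPM after anti-miR-99b and at 137, 144 and 131 CPM in controls. The mice of both groups were interleaved, and the log2FC was 0.02 ± 0.07. Igf1r, the receptor for insulin-like growth factor, was at -0.04 ± 0.07, Ctdspl, a phosphatase, at 0.00 ± 0.06, and Epdr1 at -0.10 ± 0.06. The member with the lowest p was Trib2, a pseudokinase, at 34.2, 44.5 and 40.9 CPM against 61.0, 41.3 and 66.0 CPM. It was lower, not higher, by 0.49 ± 0.16 (unadjusted p = 0.0114, adjusted p = 0.573), and its groups overlapped through sc-control mouse 3. Ptgir, the prostacyclin receptor, was at 0.735, 1.00 and 0.592 CPM against 0.0559, 0.0705 and 0.262 CPM, with the groups apart (log2FC 2.52 ± 0.48, unadjusted p = 0.000379, adjusted p = 0.197).

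The machinery that makes and uses miRNAs was also read. Of 16 genes, 1 was higher and 1 lower at an unadjusted p under 0.05 (6.25% each, against 5.17% and 2.47% of all genes tested). Dgcr8, the partner of Drosha in cutting hairpins, was at 32.5, 32.4 and 31.7 CPM against 27.4, 27.9 and 29.97 CPM, with the groups apart (log2FC 0.18 ± 0.07, unadjusted p = 0.0291). Ago2, the Argonaute that cleaves its targets and which itself holds a 7mer match, was at 79.8, 85.8 and 98.1 CPM against 106, 92.6 and 104 CPM (log2FC -0.20 ± 0.09, unadjusted p = 0.0486). Neither passed after adjustment.

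By annotated biotype, the libraries had nearly the same make-up. Protein-coding genes took 97.8 ± 0.28% of counts after anti-miR-99b and 97.8 ± 0.22% in controls (SD, n = 3 each), and long non-coding types took 1.52 ± 0.14% and 1.46 ± 0.06%. Pseudogene types took 0.0896, 0.0909 and 0.0857% in treated mice and 0.0807, 0.087 and 0.0823% in controls. Anti-miR-99b mouse 3 lay below sc-control mouse 3 in that share, so the groups overlapped. The share from mitochondrially encoded genes was 2.45, 3.68 and 3.81% against 3.89, 2.84 and 4.03%, with wide overlap, and the difference of -0.27 percentage points became 0.16 without anti-miR-99b mouse 1 and -0.64 without sc-control mouse 3. In exact permutation tests over the 6 mice (two-sided, smallest p possible 0.1, Benjamini-Hochberg over 8 shares), p was 0.6 for protein-coding, 0.6 for long non-coding, 0.2 for pseudogene and 0.5 for mitochondrial counts, and every adjusted p was at least 0.686. No share could have passed 0.05 with 3 mice against 3.

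Within biotypes the called genes were 13 protein-coding genes, the antisense gene Nkx2-2os and the polymorphic pseudogene Mx2. Among the 14931 protein-coding genes tested, 812 were higher and 395 lower at an unadjusted p under 0.05 (5.44% and 2.65%). Their median log2FC was 0.00. Long non-coding types (1940 tested) gave 65 higher and 28 lower genes, or 3.35% and 1.44%, both under the background of 5.17% and 2.47%. All pseudogene types together (367 tested) gave 17 higher and 2 lower, or 4.63% and 0.545%, again both under the background. Their median log2FC was 0.07.

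The polymorphic pseudogenes, loci that are intact in some mouse strains only, gave other values. All 11 tested were above 0, 5 at an unadjusted p under 0.05 (45.5% against 5.17%), with a median log2FC of 0.59 (0.60 in lane 6 and 0.14 in lane 7). They included Gbp11, a guanylate-binding protein, at 1.18, 1.54 and 1.68 CPM against 0.559, 0.634 and 0.961 CPM. Its groups were apart, with a log2FC of 1.03 ± 0.26 and an adjusted p of 0.353. The members at an unadjusted p under 0.05 were Mx2, Gbp11, Oas1b, Slc22a13b-ps and H2-Q5, the last 3 named after their values were seen. Mx2, Gbp11 and Oas1b are genes that interferon is known to induce, and H2-Q5 is of the major histocompatibility complex. Several of these have near-identical relatives, and reads that fit more than one copy may be split or lost.

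Mitochondrially encoded RNAs leaned lower, with large differences between mice. Of 13 mitochondrially encoded mRNAs, 7 were tested, 5 (mt-Co2, mt-Atp8, mt-Atp6, mt-Co3 and mt-Nd4l) were listed at 0 in all libraries, and mt-Nd3 had at most 7 counts. The 0 counts fall on genes that brain uses heavily, so these rows cannot be read as levels. Of the 7 tested, 6 were below 0, with a median log2FC of -0.03 and 0 with an unadjusted p under 0.05. mt-Nd1, of complex I, was at 2761, 4231 and 4073 CPM against 5031, 3164 and 5122 CPM (log2FC -0.27 ± 0.20). mt-Co1, of cytochrome oxidase, was at 5707, 9385 and 10623 CPM against 10167, 7476 and 9935 CPM (-0.10 ± 0.20). Anti-miR-99b mouse 1 was the lowest and both groups overlapped. mt-Nd2 was at -0.22 ± 0.17, mt-Nd4 at -0.03 ± 0.13, mt-Nd5 at 0.01 ± 0.13, mt-Nd6 at -0.01 ± 0.18 and mt-Cytb at 0.00 ± 0.14.

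The structural RNAs of the mitochondrion had lower values. mt-Rnr1 and mt-Rnr2, its ribosomal RNAs, were at -0.42 ± 0.22 and -0.47 ± 0.24. All 14 mitochondrial tRNAs tested were below 0, with a median of -0.66 (-0.43 in lane 6, -0.45 in lane 7) and 2, mt-Tq and mt-Tp, at an unadjusted p under 0.05. This median rested on single mice, at -1.14 without anti-miR-99b mouse 3, -0.36 without anti-miR-99b mouse 1 and -0.28 without sc-control mouse 4, and it was 0.08 in a fit of the mice numbered 2 and 3 with the replicate number as a block (the replicate block). Their median deviation per mouse was -0.77, -0.02 and 0.24 in treated mice and 0.28, -0.28 and 0.69 in controls. One mouse of each group was therefore low, and the groups overlapped. Nuclear genes of oxidative phosphorylation did not share the lean. Of 84 tested, 0 were higher and 0 lower at an unadjusted p under 0.05, with a median log2FC of -0.02.

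Across all protein-coding genes, direction went with 3 properties of the gene. Genes were put in 5 bins of equal size by each of GC content and mean level. By GC content of the longest transcript, the lowest bin (up to 44.0% GC) gave 41 higher and 149 lower genes at an unadjusted p under 0.05, and the highest bin (from 55.8% GC) gave 277 higher and 23 lower. Their median log2FC was -0.10 and 0.07. By mean level, the lowest bin (up to 3.91 CPM) gave 305 higher and 38 lower genes, and the highest bin (from 79.3 CPM) gave 36 and 137, with medians of 0.11 and -0.03. By genomic span, genes under 10 kb gave 236 higher and 53 lower, and genes over 300 kb gave 10 and 41. Span and GC content are related, since long genes of brain are AT-rich.

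The GC trend differed between mice of one group. The median deviation of the highest GC bin was 0.14, 0.04 and -0.08 in anti-miR-99b mice 1 to 3 and -0.02, 0.00 and -0.08 in sc-control mice 2 to 4. Both lane 7 mice were low and anti-miR-99b mouse 1, which also had the lowest mitochondrial share, was high. Within lane 7 the median log2 difference of that bin was 0.00, and within lane 6 it was 0.09. The level trend was present in both lanes, at 0.08 in lane 6 and 0.06 in lane 7 for the lowest bin, and its part due to the lower depth of the treated libraries was not tested. When the smooth trend of each library against GC content was removed, the medians of the lowest and highest GC bins became 0.01 and 0.00, 34 genes were higher and 1 lower, and all 15 genes remained past the threshold. Medians given with the GC trend removed come from that fit.

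**Figure D3:**
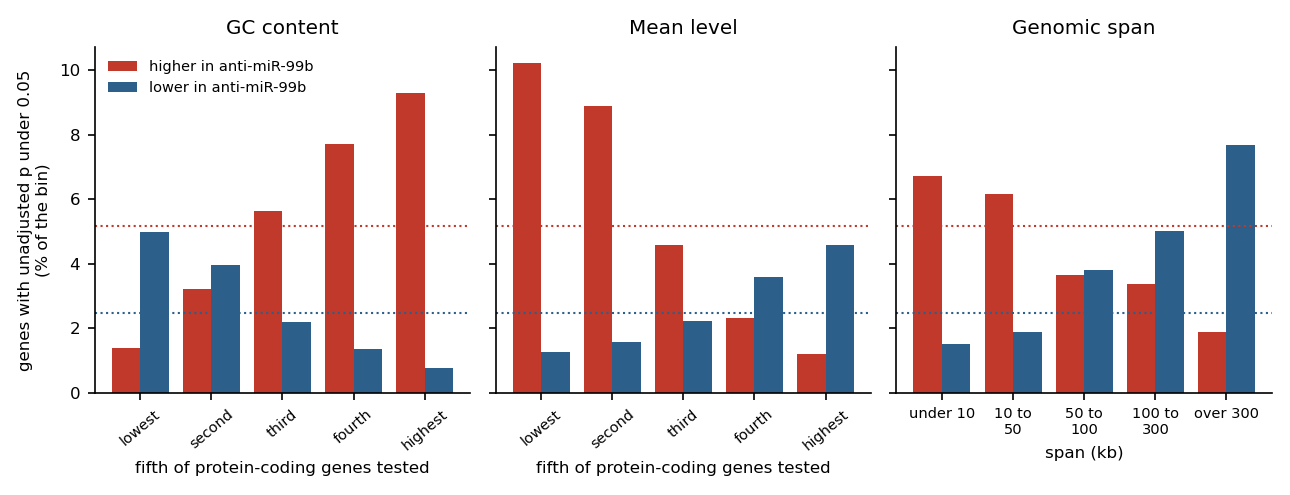
Bars give the percent of tested protein-coding genes with an unadjusted p under 0.05 that were higher (red) or lower (blue) after anti-miR-99b, in 5 equal bins by GC content (left), in 5 equal bins by mean level (middle) and by genomic span in kb (right). Dotted lines mark the same percent over all genes tested, 5.17% higher and 2.47% lower. Higher genes go from 1.37% in the lowest GC bin to 9.28% in the highest, and from 10.2% in the lowest level bin to 1.21% in the highest.

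By chromosome, the X stood lowest among the nuclear chromosomes with 100 or more genes tested. Of 580 genes, 192 were above 0 and 388 below. At an unadjusted p under 0.05, 7 were higher and 24 lower (1.21% and 4.14% against 5.17% and 2.47%). The median log2FC was -0.06 (-0.09 in lane 6, -0.04 in lane 7). X-linked genes had a median GC content of 45.8% against 49.6% over all genes tested. With the GC trend removed, the X median was -0.03, and 21 genes were higher and 26 lower. Among the same chromosomes with 100 or more genes tested, 7 and 17 had the highest medians, at 0.04 and 0.03. With the GC trend removed, both were at 0.02.

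A list of genes of deep-layer projection neurons leaned lower. Most are transcription factors that set or keep the identity of corticofugal neurons of layers V and VI, while Ldb2 is a cofactor and Crym, which binds thyroid hormone, is not a transcription factor. Of 10 tested, 0 were past the threshold and 9 were below 0, 4 of them at an unadjusted p under 0.05 (40% against a background of 2.47%), with a median log2FC of -0.16. The median was -0.14 within lane 6, -0.19 within lane 7 and -0.13 with the GC trend removed. The median deviation of the list was -0.06, -0.08 and -0.03 in treated mice and 0.08, 0.11 and 0.09 in controls. All treated mice were thus below all controls, in both lanes.

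Bcl11b (Ctip2), which specifies subcerebral projection neurons, was at 56.5, 54.2 and 55.9 CPM after anti-miR-99b and at 76.0, 69.0 and 69.4 CPM in controls. The groups were far apart for their spread, and the log2FC was -0.36 ± 0.07, the lowest p of any lower gene (unadjusted p = 0.000321, adjusted p = 0.18, DESeq2 adjusted p = 0.00775). Foxp2, a factor of layer VI neurons, was at 9.92, 9.43 and 11.9 CPM against 16.1, 13.9 and 13.3 CPM (log2FC -0.46 ± 0.12, adjusted p = 0.359). Its groups were apart, though the gap was small in lane 7. Fezf2 (-0.19 ± 0.08) and Crym (-0.24 ± 0.11), named after their values were seen, were the others at an unadjusted p under 0.05. Ldb2, the one member above 0, was at 0.01 ± 0.07. General neuron markers also lay lower in each treated mouse, with a median deviation of -0.03, -0.02 and -0.08 against 0.06, 0.04 and 0.05 in controls. Of these 5 markers 4 were below 0 and none was at an unadjusted p under 0.05, with a median of -0.08 (-0.04 in lane 6, -0.07 in lane 7), and Slc17a7, the transporter of glutamate into vesicles, at -0.01 ± 0.09. Bcl11b, Foxp2 and Crym are also known from striatum, whose markers had a fitted median of -0.65. These markers were lower in treated mice in lane 6 (-1.27) and higher in lane 7 (1.00). In lane 7 Bcl11b was at -0.31, Foxp2 at -0.15 and Crym at -0.25, with 1 mouse a group. The part of neuron and striatum markers in the result was not tested.

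The factors of the oligodendrocyte lineage had values above 0. They drive the step from precursor to myelinating cell. Of 11 tested, 1 was past the threshold, 10 were above 0 and 5 were at an unadjusted p under 0.05 (45.5% against 5.17%), with a median log2FC of 0.16 (0.21 in lane 6, 0.13 in lane 7, and 0.15 with the GC trend removed). The median deviation was 0.10, 0.07 and 0.09 in treated mice and -0.14, -0.11 and -0.06 in controls, again with no overlap.

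Nkx6-2, a homeodomain factor that acts late in oligodendrocyte maturation, was at 32.5, 28.6 and 22.7 CPM against 14.3, 15.2 and 14.3 CPM. Every treated mouse exceeded every control (log2FC 0.93 ± 0.12, adjusted p = 0.0331). St18, a zinc finger factor that is high in oligodendrocytes, was at 14.4, 15.9 and 15.2 CPM against 8.85, 9.83 and 11.0 CPM (log2FC 0.62 ± 0.10, adjusted p = 0.132). Myrf (0.27 ± 0.07), Sox10 (0.25 ± 0.07) and Sox8 (0.22 ± 0.09), named after their values were seen, completed the 5. Olig1 (0.01 ± 0.07) and Olig2 (0.05 ± 0.07), which are present from the precursor stage on and were also named after their values were seen, stood near 0, and Tcf7l2 was the one member below it (-0.20 ± 0.17).

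The antisense gene Nkx2-2os was at 2.08, 2.04 and 1.81 CPM against 0.447, 0.775 and 0.786 CPM (log2FC 1.57 ± 0.24, adjusted p = 0.0763), while Nkx2-2, which it overlaps, was at 4.86, 3.82 and 4.64 CPM against 3.52, 3.88 and 4.86 CPM (0.12 ± 0.16). The former was apart between groups and the latter was not. The genes of myelin itself did not follow the factors. Mbp was at -0.12 ± 0.08, Mag at 0.05 ± 0.07, Mobp at 0.03 ± 0.08, and Mog was lower at -0.25 ± 0.11 with an unadjusted p of 0.0425. Erbb3, the neuregulin receptor of glia, was among the 10 lower genes with the lowest p, at 14.7, 17.8 and 18.5 CPM against 23.0, 21.7 and 26.2 CPM (-0.47 ± 0.11, adjusted p = 0.289).

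**Figure D4:**
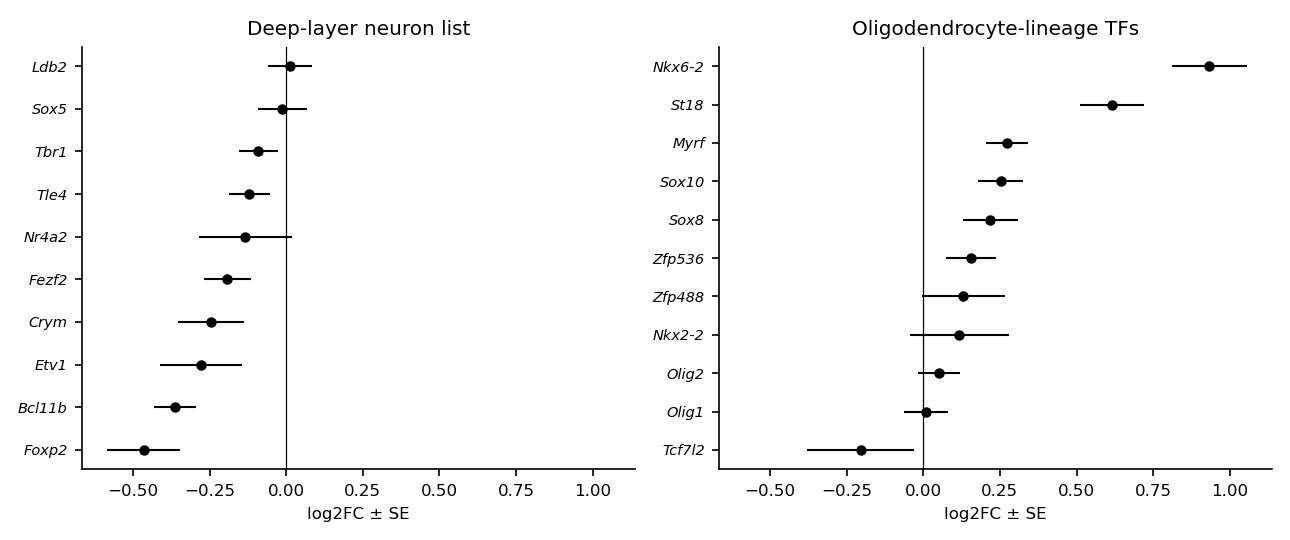
Fitted log2FC (points) with its SE (bars) for every tested member of the deep-layer neuron list (left, 10 genes) and the oligodendrocyte-lineage factors (right, 11 genes), each ordered by log2FC on a common axis. Bcl11b at -0.36 and Foxp2 at -0.46 lie lowest in the left panel, and Nkx6-2 at 0.93 and St18 at 0.62 lie highest in the right one.

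Values for several receptors and channels of neurons were below 0 by small amounts. Of 14 subunits of the GABA-A receptor, the chloride channel of fast inhibition, 13 were below 0 and 4 were lower at an unadjusted p under 0.05 (28.6% against 2.47%), with a median of -0.16. The median was -0.22 in lane 6, -0.05 in lane 7 and -0.07 with the GC trend removed, when 2 were lower, and these genes are AT-rich, with a median GC content of 42.6%. It was -0.08 without anti-miR-99b mouse 1 and -0.26 without anti-miR-99b mouse 3. Gabra5, a subunit outside the synapse, was at 62.2, 57.6 and 60.9 CPM against 69.7, 68.3 and 68.7 CPM (-0.19 ± 0.06, unadjusted p = 0.0131). The groups were apart. Gabrg3 was at -0.19 ± 0.08, and Gabrr2, the only subunit above 0, at 0.17 ± 0.27.

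Potassium channels, which set firing and resting potential, gave 0 higher and 8 lower of 81 tested (9.88% against 2.47%), with a median of -0.05 (-0.06 in lane 6, -0.04 in lane 7). The count was 10 lower and 1 higher with the GC trend removed, with a median of -0.06. Kcnd2, the pore of the A-type current in dendrites, was at 72.0, 75.3 and 76.4 CPM against 87.6, 86.7 and 92.2 CPM, with the groups apart (-0.25 ± 0.06, unadjusted p = 0.00271, adjusted p = 0.357). Kcnj2, an inward rectifier, was at -0.39 ± 0.12. Of 12 sodium channel genes 2 were lower at an unadjusted p under 0.05 (16.7% against 2.47%), Scn1a at -0.17 ± 0.07 and Scn3b at -0.16 ± 0.07. The sodium channel median of -0.15 was -0.21 in lane 6 but 0.03 in lane 7, and -0.08 with the GC trend removed. Of 53 clustered protocadherins, the adhesion molecules that mark single neurons, 40 were below 0, with a median of -0.11 (-0.12 in lane 6, -0.04 in lane 7, and -0.07 with the GC trend removed), but 2 were lower, a share of 3.77% near the 2.47% of all genes. Calcium channels and ionotropic glutamate receptors showed 0 genes in either direction out of 25 and 18, with medians of 0.00 and -0.01.

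Genes of the extracellular matrix leaned higher. Of 43 collagens tested, 13 were higher and 0 lower at an unadjusted p under 0.05 (30.2% against 5.17%), and in 14 all treated mice exceeded all controls (32.6% of them against 7.52%). Their median log2FC was 0.15 (0.17 in lane 6 and 0.04 in lane 7). With the GC trend removed, 10 were higher and 1 lower and the median was 0.09. None passed after adjustment in edgeR. Col7a1, the collagen of anchoring fibrils, was at 9.76, 9.43 and 8.25 CPM against 6.14, 6.03 and 5.85 CPM. The groups were far apart in both lanes (0.60 ± 0.11, unadjusted p = 0.000262, adjusted p = 0.18, DESeq2 adjusted p = 0.0197). Col6a6, of the microfibrillar type VI, was at 0.98, 1.18 and 1.08 CPM against 0.447, 0.669 and 0.495 CPM (1.03 ± 0.25).

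Of 11 laminins, the building blocks of basement membrane, 2 were higher and 0 lower at an unadjusted p under 0.05 (18.2% against 5.17%), with a median of 0.14 (0.18 in lane 6, 0.02 in lane 7, and 0.13 with the GC trend removed). Lama5 was at 26.9, 25.9 and 22.8 CPM against 20.9, 21.9 and 19.5 CPM, apart between groups (0.28 ± 0.09, unadjusted p = 0.00999), and Lama3 was at 0.25 ± 0.10. Integrins are adhesion receptors, of which only some bind collagens or laminins. Of 27 tested, 7 were higher and 1 lower (25.9% and 3.70% against 5.17% and 2.47%). Their median was 0.19, which was 0.21 in lane 6, -0.03 in lane 7 and 0.17 with the GC trend removed. Itga2b was at 7.47, 9.04 and 5.196 CPM against 3.55, 3.77 and 3.23 CPM (1.04 ± 0.19, adjusted p = 0.18). Itgae was at 1.34 ± 0.29, and Itgbl1, an integrin-like secreted protein, at -0.43 ± 0.17. The 3 markers of the meninges had a median of 0.08, which was 0.28 in lane 6, -0.22 in lane 7 and 0.24 with the GC trend removed. They were Dcn at 0.08 ± 0.16, Slc6a13 at -0.02 ± 0.13 and Col1a1, itself a collagen, at 22.7, 21.8 and 23.5 CPM against 17.6, 18.8 and 18.6 CPM (0.31 ± 0.08). All 3 mural markers (Pdgfrb, Rgs5 and Acta2) were above 0, with a median of 0.10 (0.07 in lane 6, 0.18 in lane 7). Their median deviation was 0.08, 0.14 and 0.10 in treated mice and -0.07, -0.01 and -0.12 in controls, with no overlap. The part of these cells in the matrix values was not tested.

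Galectins are sugar-binding proteins that are high in activated glia and in epithelia. All 7 tested members of the family, with the binding protein Lgals3bp, were above 0, 5 at an unadjusted p under 0.05, or 71.4% against 5.17%, with a median of 0.60 (0.73 in lane 6, 0.19 in lane 7, and 0.58 with the GC trend removed). Lgals4 was at 5.80, 6.29 and 4.28 CPM against 2.82, 2.40 and 2.85 CPM, with the groups apart (1.01 ± 0.17, adjusted p = 0.132). Lgals3 was at 9.23, 8.90 and 5.39 CPM against 1.68, 2.78 and 5.91 CPM (1.17 ± 0.37). Here the groups overlapped, because sc-control mouse 4 exceeded the treated mouse of its lane. Lgals9 was at 0.60 ± 0.15, Lgals3bp at 0.71 ± 0.19, Lgals1 at 0.32 ± 0.13, Lgals12 at 0.39 ± 0.40 and Lgals8 at 0.10 ± 0.10. The same split appeared in Gfap and Vim of the injury list, where all 14 tested genes were above 0 but the median was 0.71 in lane 6 and -0.43 in lane 7. Vim, a filament protein of reactive glia picked after its values were seen, was at 145, 119 and 96.5 CPM against 64.9, 72.3 and 114 CPM, and Tnc, a matrix protein of scars and the member with the lowest p, was at 9.15, 7.08 and 7.63 CPM against 5.95, 5.67 and 5.94 CPM (0.44 ± 0.12, groups apart). Microglial markers, with a median of 0.20, were at 0.33 in lane 6 and -0.02 in lane 7. Of the 5 tested, 2 were higher and 0 lower at an unadjusted p under 0.05 (40% higher, against 5.17%). Their median deviation was 0.09, 0.15 and 0.10 in treated mice and -0.15, -0.26 and 0.07 in controls, with no overlap.

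**Figure D5:**
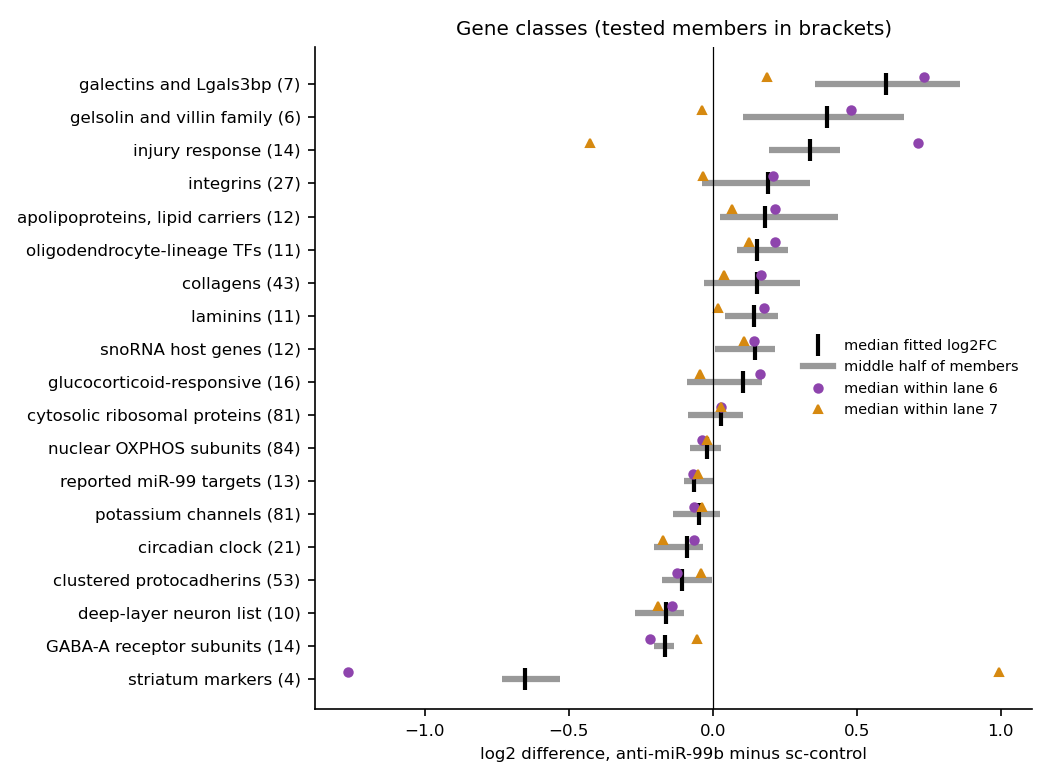
For 19 gene classes, the black tick is the median fitted log2FC, the grey bar spans the interquartile range of tested members, and the purple circle and orange triangle are the median log2 difference within lane 6 and lane 7, with the number of members tested in brackets. The deep-layer neuron list (-0.14 and -0.19) and oligodendrocyte-lineage factors (0.21 and 0.13) keep their side of 0 in both lanes, while the injury list (0.71 and -0.43) and striatum markers (-1.27 and 1.00) change side.

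Lipid carriers and detoxifying enzymes held several of the calls. Of 12 apolipoproteins and lipid carriers tested, 1 was past the threshold (Apoa1, given above), 5 were higher and 0 lower at an unadjusted p under 0.05 (41.7% against 5.17%), and the median was 0.18 (0.21 in lane 6, 0.07 in lane 7, and 0.13 with the GC trend removed). Apoa2, which travels with Apoa1, was at 0.694, 0.50 and 0.395 CPM against 0.279, 0.247 and 0.262 CPM (0.97 ± 0.33, groups apart). Of 27 cytochromes P450, 1 was past the threshold, 5 were higher and 0 lower at an unadjusted p under 0.05 (18.5%), and the median was 0.04 (0.05 in lane 6, -0.02 in lane 7, and 0.06 with the GC trend removed). Cyp2j12 was at 8.21, 10.5 and 7.83 CPM against 3.35, 4.02 and 3.87 CPM, and Cyp3a13 was at 0.73 ± 0.22. Of 20 aldehyde dehydrogenases, 1 was past the threshold, 5 were higher and 1 lower (25% and 5%), with a median of 0.06 that was 0.00 with the GC trend removed. Aldh1l2, of mitochondrial folate metabolism, was at 0.49 ± 0.15 and Aldh1a1, which makes retinoic acid, at -0.24 ± 0.11.

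Among regulators of RNA and chromatin, splicing factors and chromatin remodellers each held 1 gene past the threshold. Of 50 splicing factors, only Srpk3 was past the threshold or at an unadjusted p under 0.05, and the median was -0.07 (0.00 with the GC trend removed), with the SR proteins at -0.11 and the hnRNP proteins at -0.09. The SR median was -0.05 with the GC trend removed and became 0.02 without anti-miR-99b mouse 1 and 0.01 without sc-control mouse 4. Of 42 chromatin remodellers, Chd2 was past the threshold. At an unadjusted p under 0.05, 3 were higher and 2 lower (7.14% and 4.76% against 5.17% and 2.47%). Among these were Chd7 at 0.23 ± 0.09, Chd9 at -0.20 ± 0.09 and Arid2 at -0.21 ± 0.09. Of 12 small nucleolar RNA host genes, 3 were higher and 0 lower (25% higher, against 5.17%). Their median was 0.15 (0.14 in lane 6, 0.11 in lane 7, and 0.24 with the GC trend removed). Snhg15 was at 3.84, 4.18 and 3.62 CPM against 2.40, 2.64 and 2.88 CPM (0.55 ± 0.14, groups apart) and Snhg12 at 0.23 ± 0.09. These host genes are non-coding messages that are spliced and then destroyed by nonsense-mediated decay.

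Lists of fast-responding genes differed in sign. Of 21 clock genes, 17 were below 0 and 3 were lower at an unadjusted p under 0.05 (14.3% against 2.47%), with a median of -0.09 (-0.07 in lane 6, -0.17 in lane 7, and -0.11 with the GC trend removed). It was -0.15 without anti-miR-99b mouse 2, -0.16 without sc-control mouse 2, -0.19 without sc-control mouse 3 and -0.02 with the replicate block. All 3 are repressors. Per2 was at 38.2, 44.9 and 42.0 CPM against 68.4, 43.8 and 68.5 CPM (-0.53 ± 0.15), where sc-control mouse 3 lay among the treated mice. Cry1 was at 16.7, 18.5 and 19.7 CPM against 24.6, 20.5 and 24.1 CPM, with the groups apart (-0.34 ± 0.10). The hour of dissection is not given in the sources used here. Of 21 feedback regulators of MAP kinase signalling, 3 were lower and 0 higher (14.3%), with a median of -0.08 (-0.07 in lane 6, -0.18 in lane 7, and -0.11 with the GC trend removed), and all 6 Sprouty and Spred proteins, which damp the pathway, were below 0. Spred2 was at 65.8, 75.6 and 71.3 CPM against 104, 84.7 and 98.1 CPM, with the groups apart (-0.43 ± 0.09, adjusted p = 0.235, DESeq2 adjusted p = 0.00852). Spred1 was at -0.40 ± 0.18, Spred3 at -0.08 ± 0.07, Spry1 at -0.05 ± 0.11, Spry2 at -0.08 ± 0.07 and Spry4 at -0.20 ± 0.17. Immediate early genes had a median of -0.14, with 0 higher and 1 lower of 18 (5.56%). This median rested on sc-control mouse 4, whose deviation was 0.23 against -0.08 to -0.01 in the other mice, and without that mouse it was -0.01. Glucocorticoid-responsive genes lay above 0, with a median of 0.10 (0.17 in lane 6, -0.04 in lane 7, and 0.06 with the GC trend removed) and 4 higher and 1 lower of 16 (25% and 6.25%), led by Arrdc2 (0.36 ± 0.12) and Hif3a (0.52 ± 0.19).

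The remaining genes with the lowest p among lower genes included kinases and a ubiquitin ligase. Gfod1 was at 129, 136 and 140 CPM against 179, 155 and 174 CPM (-0.32 ± 0.07), and Map3k13, a kinase upstream of JNK in axons, was at 18.1, 17.6 and 20.8 CPM against 27.6, 22.2 and 26.9 CPM (-0.44 ± 0.10). Nuak1, a kinase of axon branching, was at 94.3, 103 and 92.1 CPM against 139, 108 and 128 CPM (-0.37 ± 0.09). In all 3 the groups were apart in both lanes. Rnf165 (-0.29 ± 0.07), a ubiquitin ligase of motor axon growth, and D630045J12Rik (-0.24 ± 0.06), which overlaps Atp6v0a4, followed. None passed after adjustment, with adjusted p between 0.289 and 0.361.

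The housekeeping and stress-response classes given below had medians from -0.07 to 0.03. Outside that range, 15 p53 targets had a median of 0.10 (0.16 in lane 6, -0.13 in lane 7). Of the p53 targets, 0 were higher and 1 lower at an unadjusted p under 0.05 (6.67% lower, against 2.47%). Cytosolic ribosomal proteins had a median log2FC of 0.03, with 5 higher and 0 lower of 81 at an unadjusted p under 0.05 (6.17% higher). Mitochondrial ribosomal proteins had 0.00 with 0 and 0 of 77. The proteasome had -0.03 with 3 and 0 of 47 (6.38%). Cholesterol synthesis had 0.01 with 2 and 0 of 22 (9.09%), where the background of higher genes was 5.17%. Genes of the unfolded protein response had a median of -0.07 (-0.01 in lane 6, -0.20 in lane 7) with 15 of 20 below 0 and 2 lower (10%). Heat shock genes and chaperones had the same median with 17 of 21 below 0, and common reference genes had -0.07 with 8 of 10 below 0. Genes with an annotated retained-intron transcript and those without had medians of 0.01 and -0.01.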

How the data were processed

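The authors sequenced poly(A) RNA (TruSeq RNA v2 kit, single reads of 50 bases) and, per the labels and their methods, used bcl2fastq 2.20.2, FastQC 0.11.5, STAR 2.5.2b with mm10 and featureCounts 1.5.1. They deposited raw counts per gene, not normalized. The annotation release and strand setting of the counting are not given in the sources used here, and the kit does not mark strand. Of the IDs, 360 of 48709 were not in GENCODE M21, used here for biotypes and UTRs.

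The 6 PFC libraries were fitted alone with edgeR 4.0.16 (R 4.3.3), with TMM factors, filterByExpr and a quasi-likelihood test of treatment. All unadjusted and adjusted p-values of genes come from this test, or from DESeq2 1.42.0 where named. Benjamini-Hochberg adjustment ran over all genes tested, and a gene passed at adjusted p under 0.1 and absolute log2FC over 0.2. SE is |log2FC| divided by the square root of F. CPM used TMM library sizes. Lane differences were taken on log2(CPM + 0.5). Scripts were tested on simulated data.

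The genes named were those past the threshold with their nearest neighbours, the 10 lower genes with the lowest p, the mitochondrially encoded mRNAs, and up to 2 members of a class in each direction by lowest p, or all members of classes of 8 or fewer. Members and gene lists were chosen with earlier results of these data known, so classes got no test. The labels give no more than 1 library per mouse, and p-values measure the spread between these mice. Alternatives were another test, scaling, filter, lane, mitochondrial share, replicate number, RUVs factor and each mouse left out. Culture libraries of the series were not used here.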

Additional observations from a re-analysis of the deposited data

How the results depend on the processing

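The main threshold gave 15 higher and 0 lower genes. Higher and lower genes numbered 85 and 8 with DESeq2, 25 and 0 with upper-quartile factors (which moved the median of all genes to 0.04), 297 and 115 with no filter on low counts, 73 and 4 with lane as a block, 308 and 37 in lane 6 alone, 98 and 11 with the mitochondrial share as a covariate, 133 and 24 with a RUVs factor, and 34 and 1 with the GC trend of each library removed. The last was chosen after seeing the data. Leaving out 1 mouse gave between 1 and 195 higher and between 0 and 6 lower genes. The cause of these differences was not tested. All 15 genes remained past the threshold in each of these fits except those leaving out a mouse, where between 1 and 15 did. RLE factors and removal of mitochondrial genes kept 14, and a minimum of 10 counts in every library kept 10 of the 11 it could test.

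Replicate numbers 2 and 3 occur in both groups. Deviations of same-numbered mice correlated at 0.0476 and -0.285, so the numbers were not shown to pair the mice. A replicate block gave 475 higher and 43 lower genes, and the crossed replicate block, chosen after seeing the data, gave 551 and 87.

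The deep-layer neuron list median was -0.14 within lane 6, -0.19 within lane 7, -0.13 with the GC trend removed, -0.12 with upper-quartile factors, -0.10 with either the replicate block (-0.0971) or the crossed one (-0.0967), and from -0.21 to -0.13 with a mouse left out. The oligodendrocyte-lineage factor median was 0.21 within lane 6, 0.23 in a fit of lane 6 alone, 0.19 with upper-quartile factors, 0.21 with the number as a replicate block, crossed or not, and from 0.12 to 0.26 with a mouse left out. The collagen median was 0.0401 within lane 7. No median of these lists and none of the 15 higher or 10 lower genes named changed sign under any alternative run. Over 135 classes, 434 class medians under an alternative moved by more than the spread between mice and 2398 did not. With 3 mice a group and 1 in each group on lane 7, differences within lane 7 have no replicate check.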
